A study of Mus musculus with 8 samples.

Results

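Gbp2, Gbp3, Gbp8, Tgtp1, Tgtp2 and Ifi47 encode GTPases that cells make in response to interferon-gamma, and their RNA was followed here in 8 mouse tumors. They were found by symbol, with 1 row each, and are 6 of the 752 genes in the authors' deposited table. That table was itself selected on the comparison described here: every gene in it has a deposited p-value of at most 0.04995 and a log2 difference between the groups beyond 1. That a listed gene differs between the groups is therefore fixed by its presence in the table, and the values of the 6 genes in that contrast are given as measurements.

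The tumors grew under the skin of germ-free C57BL/6 mice, labelled as wild type, from injected MC38 cells, a line of mouse colon adenocarcinoma, and were taken on day 23. All mice received an anti-PD-1 monoclonal antibody by intraperitoneal injection. It blocks PD-1, an inhibitory receptor of activated T cells. Tumors 11, 17, 18 and 19 came from the group labelled anti-PD-1. Tumors 36, 37, 39 and 40 came from the group labelled anti-PD-1 + F. nucleatum, whose mice were also gavaged with Fusobacterium nucleatum ATCC-25586 (an anaerobe found in the mouth and gut). The comparison therefore asks what differs in tumors with the bacterium when the antibody is present in both groups. Tumors without the antibody were not analysed here. Each group holds 4 bulk RNA libraries with 1 tumor number each, the labels do not say for each tumor that it came from its own mouse, and MC38 is a single tumor line.

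Interferon-gamma is released mainly by activated T cells and natural killer (NK) cells. Its signal reaches genes through a DNA element called GAS and through another element, the ISRE, which is bound by IRF proteins. Guanylate-binding proteins (Gbp genes) are large GTPases that assemble on vacuoles and membranes around intracellular microbes. The immunity-related GTPases, to which Tgtp1, Tgtp2 and Ifi47 belong, are smaller proteins that load onto parasite vacuoles in mouse cells. In tumors, RNA of both families is commonly read as a trace of interferon exposure of tumor, immune and stromal cells alike.

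Interferon signals reach their target genes through these 2 promoter elements, so the stretches of the members' promoters that match them are printed first. RefSeq windows on GRCm38.p6, from 250 bases before to 50 bases after a transcription start site, were given for 5 of the 6 members, with 2 start sites for Gbp3. Gbp8 had no entry. The ISRE was searched as GAAANNGAAA and the GAS element as TTCNNNGAA on both strands, with overlapping matches kept. Each sequence is written 5′ to 3′ on the gene's own strand with 15 bases around the matches, and capitals mark the matched letters.
Gbp2, chr3:142620589-142620628, plus strand: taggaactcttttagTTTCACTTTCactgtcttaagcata
Gbp3, chr3:142559984-142560029, plus strand: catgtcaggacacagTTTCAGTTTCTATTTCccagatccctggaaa
Tgtp1, chr11:48992299-48992349, minus strand: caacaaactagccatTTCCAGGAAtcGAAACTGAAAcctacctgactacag
Tgtp2, chr11:49064258-49064308, minus strand: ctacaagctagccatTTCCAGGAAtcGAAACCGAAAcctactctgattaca

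An ISRE match was present in 4 of the 5 genes. In Gbp2 it lay 59 to 50 bases upstream of the start site, read on the opposite strand. The first start site of Gbp3 had a pair of overlapping matches on that strand, 45 to 36 and 39 to 30 bases upstream. Tgtp1 and Tgtp2 carried a GAS match with an ISRE match 2 bases after it, at 88 to 80 and 77 to 68 bases upstream in Tgtp1 and at 81 to 73 and 70 to 61 bases upstream in Tgtp2. Neither set of letters was found in the window of Ifi47 or at the other Gbp3 start site. Over all 32851 RefSeq windows of 300 bases, 3.44% held an ISRE match, 8.30% a GAS match and 0.454% both. Among the other interferon-induced GTPases listed for this study, 8 of the 10 with a window held an ISRE match and 5 a GAS match. A match is a run of letters and not a measured binding site. By the GENCODE M21 annotation, 27 bases of the Gbp2 stretch and 4 of the Gbp3 stretch are exonic, and no base of the Tgtp1 and Tgtp2 stretches is.

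**Figure D1:**
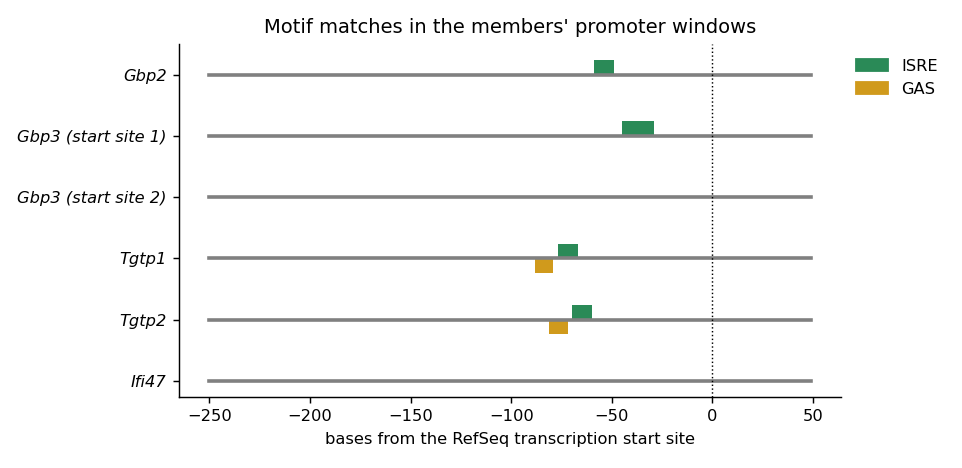
Positions of ISRE matches (green) and GAS matches (yellow) in the RefSeq promoter windows of 5 members, in bases from the transcription start site (dotted line), with both start sites of Gbp3. Tgtp1 and Tgtp2 carry both kinds of match next to each other, Gbp2 and the first Gbp3 start site carry the ISRE kind, and the other windows carry neither.

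The 6 genes sit in 3 clusters of the GRCm38 (mm10) genome, and all are protein coding. Gbp3 spans 142560026 to 142573209 and Gbp2 spans 142620602 to 142638008 on chromosome 3, both on the plus strand and 47392 bases apart. Gbp8 spans 105014150 to 105139540 on the minus strand of chromosome 5. It overlaps Gbp9 and Gbp4 on that strand, so reads of Gbp8 are uncertain where exons of these genes could be confused. The same limit holds for Tgtp1, which overlaps Gm12185, and for Ifi47, which overlaps Olfr56, each on the same strand. On chromosome 11, Tgtp1 (48985327 to 48994172, minus strand), Tgtp2 (49057194 to 49064206, minus strand) and Ifi47 (49076587 to 49096974, plus strand) follow each other with gaps of 63021 and 12380 bases. The transcripts of Tgtp1 and Tgtp2 were identical at 2804 of 2810 aligned bases (99.8%), and 89.4% of the 50-base words of Tgtp1 also occur in Tgtp2. The sources used here do not give how the authors' counting divided such reads, so the split between Tgtp1 and Tgtp2 is uncertain. The other pairs of members shared no 50-base word, with aligned identities of 61.3% to 73.2%.

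Several libraries stood apart before any GTPase was considered. Reads in the 752 listed genes ranged from 97511 to 308139 per tumor, and size factors recovered from the deposited values from 0.644 to 1.27. The total depth of the libraries is unknown. The summed level of 7 skeletal muscle markers was 333.7 FPKM (fragments per kilobase of transcript, scaled to library size) in tumor 36, 17.4 in tumor 37 and 1.88 to 3.73 in the other 6 tumors. The 6 keratinocyte markers in the table summed to 189.7 FPKM in tumor 37 and to 0.310 to 0.599 elsewhere. The 5 red blood cell markers, all higher with F. nucleatum and all at an authors' FDR under 0.05, summed to 357.6 to 657.5 FPKM with anti-PD-1 and 582.1 to 1455.5 FPKM with F. nucleatum, and their part in the GTPase values was not tested. Epcam, the epithelial marker of the table, was listed at 0 in 6 of the 8 tumors, and no other epithelial marker on the list was analysed here. Results that rest on tumor 36 are given with and without it, because muscle RNA and interferon-induced RNA were both high in it relative to the other F. nucleatum tumors; the part of the muscle RNA in the GTPase values was not tested.

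The guanylate-binding proteins were lower with F. nucleatum than with anti-PD-1 alone, and 1 of them, Gbp8, fell by the authors' false discovery rate (FDR). Levels are given as FPKM, which allows genes to be compared, and as the deposited log2 values, which are log2 of a normalized read count plus 1 and serve to compare tumors. Gbp2, which attaches to vacuoles that hold microbes, measured 15.2, 66.3, 83.7 and 12.3 FPKM in tumors 11, 17, 18 and 19 and 23.6, 5.95, 4.69 and 4.32 FPKM in tumors 36, 37, 39 and 40. Tumors 17 and 18 were far above all others, and tumor 36 lay above tumors 11 and 19, so the groups overlapped. The means were 44.4 ± 36.1 FPKM with anti-PD-1 and 9.63 ± 9.32 FPKM with F. nucleatum (SD, n = 4 each), a ratio of 4.61. On the log2 scale Gbp2 measured 11.21, 13.38, 13.74 and 10.96 against 11.84, 9.92, 9.55 and 9.49.

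Gbp3, a neighbour of Gbp2 in the same cluster, was lower in level and again highest in tumors 18 and 17, followed by tumor 36. Its values were 2.87, 9.70, 12.5 and 2.99 FPKM with anti-PD-1 and 4.07, 0.748, 0.918 and 0.890 FPKM with F. nucleatum. In log2 units these were 9.19, 10.99, 11.38 and 9.29 against 9.69, 7.32, 7.59 and 7.60. Tumor 36 exceeded tumors 11 and 19, while the other 3 F. nucleatum tumors were below every anti-PD-1 tumor. Group means were 7.02 ± 4.87 and 1.66 ± 1.61 FPKM (SD, n = 4 each).

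Gbp8, the only member on chromosome 5, was scarce in all tumors. Its levels were 0.227, 0.743, 0.654 and 0.220 FPKM with anti-PD-1 and 0.130, 0, 0.0150 and 0.000474 FPKM with F. nucleatum, and the groups did not overlap. These values rest on few reads, 51, 107, 146 and 62 in the anti-PD-1 tumors and 36, 0, 5 and 1 in the F. nucleatum tumors. For tumor 37, with no read, 3 reads would have been a normalized count of 3.48, so a level under that was not detectable (counting error only). In log2 units the values were 5.64, 7.38, 7.22 and 5.64 against 4.90, 0, 2.33 and 1.04, and the large difference of Gbp8 therefore depends on values near 0.

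The immunity-related GTPases of chromosome 11 were lower in the same 3 tumors. Tgtp1, a GTPase that loads onto parasite vacuoles, measured 1.72, 6.09, 8.10 and 1.56 FPKM with anti-PD-1 and 2.02, 0.325, 0.195 and 0.264 FPKM with F. nucleatum. Its near-identical neighbour Tgtp2 measured 2.13, 8.18, 8.33 and 2.23 FPKM against 3.11, 0.368, 0.256 and 0.419 FPKM. In both genes tumors 17 and 18 were the highest, tumor 36 came next, and tumors 37, 39 and 40 were the lowest. On the log2 scale Tgtp1 had 8.43, 10.30, 10.72 and 8.34 against 8.65, 6.12, 5.37 and 5.83. Tgtp2 had 8.62, 10.60, 10.64 and 8.73 against 9.15, 6.16, 5.63 and 6.38. Per length, in FPKM, Tgtp2 was above Tgtp1 in 8 of 8 tumors, with the smallest ratio in tumor 18. In log2 values Tgtp2 was above Tgtp1 in 7 of 8 tumors, and tumor 18 had 10.64 for Tgtp2 against 10.72 for Tgtp1. The split of reads between them is uncertain.

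Ifi47, another immunity-related GTPase, departed from the rest in tumor 18. It measured 3.78, 9.97, 3.93 and 4.35 FPKM with anti-PD-1 and 4.88, 1.35, 0.797 and 0.835 FPKM with F. nucleatum. In log2 units these were 9.19, 10.63, 9.31 and 9.44 against 9.55, 7.77, 6.995 and 7.11. Tumor 17 alone was high, tumor 18 was close to tumors 11 and 19, and tumor 36 exceeded 3 of the 4 anti-PD-1 tumors. The log2 value of Gbp2 minus that of Ifi47 was 4.43 in tumor 18 and had a median of 2.33 over the 8 tumors, with a lowest value of 1.52.

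**Figure D2:**
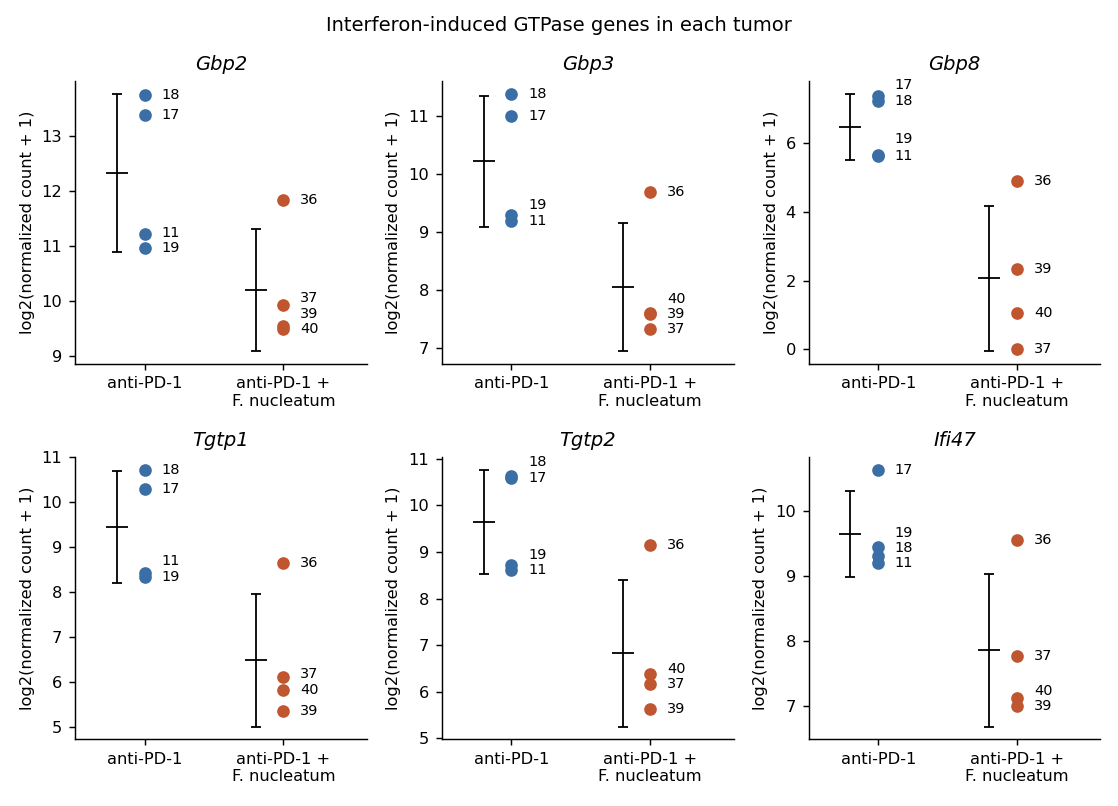
Deposited log2 values (log2 of normalized count plus 1) of the 6 members in each tumor, anti-PD-1 in blue and anti-PD-1 + F. nucleatum in orange, with tumor numbers; bars show mean and SD (n = 4 each) and each panel has its own axis. Tumors 37, 39 and 40 are the lowest in every panel, and tumor 36 is the highest of its group in every panel.

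The 6 genes differed widely in level. Gbp2 was the highest in 8 of 8 tumors and made up 52.1% to 71.4% of the summed FPKM of the members, at 2.84 to 6.68 times the second gene. Gbp8 was the lowest in 8 of 8. With anti-PD-1 the mean levels ran from Gbp2 (44.4 FPKM) through Gbp3 (7.02), Ifi47 (5.51), Tgtp2 (5.22) and Tgtp1 (4.37) to Gbp8 (0.461). Differences between neighbours among the 4 middle genes were smaller than their SDs between tumors, which were 2.99 to 4.87 FPKM. The genes were measured in the same tumors, however. Within every tumor of both groups, Gbp3 was above Tgtp2 and Tgtp2 above Tgtp1 in FPKM, while the place of Ifi47 varied. The split of reads between Tgtp1 and Tgtp2 remains uncertain. With F. nucleatum the means were 9.63 for Gbp2, 1.96 for Ifi47, 1.66 for Gbp3, 1.04 for Tgtp2, 0.701 for Tgtp1 and 0.0363 for Gbp8, and the 4 middle genes again differed by less than their SDs (0.881 to 1.96).

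Tumors of 1 group were not alike. Summed over the members, the level was 23.7 to 117.3 FPKM with anti-PD-1, 37.8 FPKM in tumor 36 and 6.73 to 8.73 FPKM in tumors 37, 39 and 40. The mean of tumors 17 and 18 exceeded the mean of tumors 11 and 19 by 1.66 to 2.48 log2 units for the members other than Ifi47, and by 0.66 for Ifi47. Tumor 36 exceeded the mean of its 3 group mates by 2.18 to 3.78 log2 units. For Gbp2, Gbp3, Tgtp2 and Ifi47 that gap was larger than the difference between the groups. Being highest of its group in tumor 36 was common among the lower genes of the table, 264 of 353 (74.8%), and held for 6 of 6 members. Against the other group, tumor 36 lay above at least 2 anti-PD-1 tumors for 5 of 6 members and for 70 of the 353 lower genes.

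Between the groups, all 6 log2 differences (F. nucleatum minus anti-PD-1) were negative, with a median of -2.49, beside a median of -1.82 over the 353 lower genes and 1.18 over all 752. For Gbp2 it was -2.12 (SE 0.91), for Gbp3 -2.17 (SE 0.79), for Gbp8 -4.40 (SE 1.16), for Tgtp1 -2.95 (SE 0.96), for Tgtp2 -2.81 (SE 0.97) and for Ifi47 -1.79 (SE 0.68), each from 4 against 4 tumors. By the authors' deposited table, the FDR is under 0.05 for 1 of the 6, Gbp8 at 0.0230. The others stand at 0.353 (Tgtp1), 0.455 (Gbp3), 0.653 (Tgtp2), 0.679 (Gbp2) and 0.957 (Ifi47). Over the table, 21.4% of genes pass that threshold and 6.25% do so as lower genes, which is 47 of the 353 lower genes. A count of 1 in 6 genes is too small to be set apart from that. Groups did not overlap for 1 of 6 members, again Gbp8. With F. nucleatum as the lower group, this held for 12.4% of the table, which is 93 of the 353 lower genes.

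In a limma fit to the log2 values of all 752 genes, 0 members and 0% of all genes passed an adjusted p of 0.05, although 323 genes, the 6 members among them, had an unadjusted p under 0.05. The limma adjusted p was 0.0932 for Gbp3, Gbp8, Tgtp1 and Tgtp2 and 0.09996 for Gbp2 and Ifi47. Benjamini-Hochberg adjustment here runs over genes already selected on the same contrast and is too lenient; over the 29424 genes that the deposited FDR values imply, the limma adjusted p of each member was 1. The 95% intervals of the difference from limma were wide, for example from -3.14 to -0.44 for Ifi47, from -3.75 to -0.50 for Gbp2 and from -6.61 to -2.19 for Gbp8.

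Leaving out tumor 36 changed these calls. All 6 members then had groups without overlap, as did 26.2% of the table in that direction, which is 197 of the 353 lower genes. Of the members, 5 of 6 passed an adjusted limma p of 0.05, beside 16.9% of the table as lower genes. That share is 127 genes, in a table with 353 lower genes over all tumors. The log2 differences became -2.71 for Gbp3 (limma adjusted p = 0.0294), -5.35 for Gbp8 (0.0178), -3.67 for Tgtp1 (0.0217), -3.59 for Tgtp2 (0.0204) and -2.35 for Ifi47 (0.0217). Gbp2, at -2.67, missed the threshold with a limma adjusted p of 0.0546. A tumor was left out here because it stood apart, and the same tumor carries the high GTPase values of its group, so this count describes the other 7 tumors and not the comparison as designed.

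**Figure D3:**
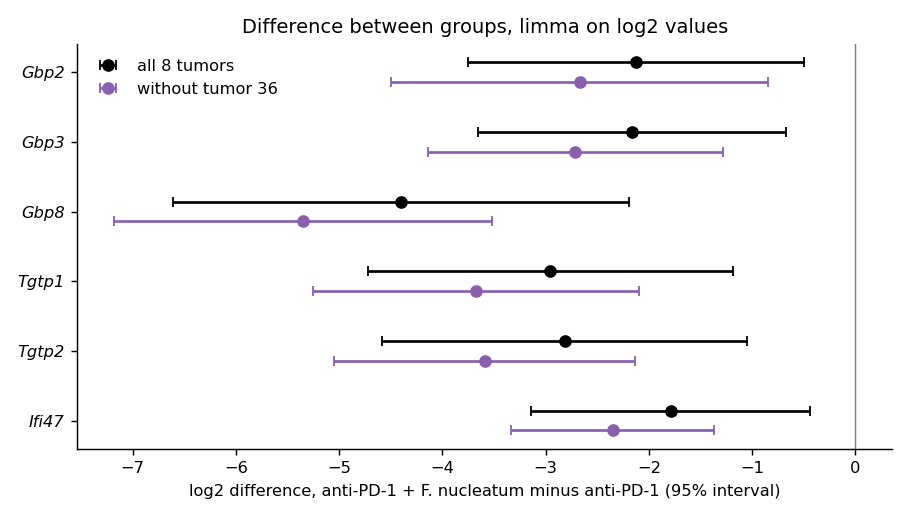
Log2 difference of each member between the groups, F. nucleatum minus anti-PD-1, from limma with its 95% interval, for all 8 tumors (black) and without tumor 36 (purple). All differences are negative, and each is larger in size without tumor 36, for example -2.95 and -3.67 for Tgtp1.

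Other interferon-induced GTPases were high and low in much the same tumors. Of 23 further interferon-induced GTPase genes on a list, 9 are listed there, lower with F. nucleatum in 9 of 9 cases. Their median log2 difference was -1.55, and none has an authors' FDR under 0.05. The guanylate-binding proteins differed by -2.92 (Gbp5, which promotes inflammasome activation), -2.43 (Gbp4), -1.86 (Gbp6), -1.52 (Gbp7) and -1.19 (Gbp9) on the log2 scale. Among immunity-related GTPases the differences were -2.53 for Iigp1, an effector GTPase of parasite vacuoles, and -1.55 for Igtp, a regulator of the effector GTPases. Gvin1, a very large interferon-inducible GTPase, and the predicted gene Gm4070 differed by -1.21 and -1.20. Both belong to a family of similar copies, so the split of reads between them is uncertain. Tumor 36 was the highest of its group for 9 of these 9 genes and lay above at least 2 anti-PD-1 tumors for 9 of 9. Their groups overlapped for all 9 with every tumor and for none without tumor 36. Without that tumor the groups did not overlap for 197 of the 353 lower genes of the table.

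Gm12250, an immunity-related GTPase that the list does not hold and that was named after its values were seen, is also in the table, with a log2 difference of -3.03 and an authors' FDR of 0.466. It is not part of the counts and the median given for the 9.

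Igtp illustrates that shared profile at a higher level than most members. It measured 8.25, 17.5, 23.7 and 7.01 FPKM with anti-PD-1 and 10.3, 3.78, 2.22 and 3.72 FPKM with F. nucleatum. Iigp1 measured 3.53, 15.04, 18.8 and 2.56 FPKM against 5.11, 1.05, 0.546 and 0.768 FPKM. In both, as in Gbp2, tumors 17 and 18 were highest and tumor 36 came next.

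Few genes of the signaling chain itself are in the table. Of 16 genes for interferon-gamma, its receptor and the proteins that carry or restrain its signal, 1 is listed, Batf2, a transcription factor induced by interferon, with a log2 difference of -1.88 and an authors' FDR close to 1. The others were not analysed here. Other interferon-gamma targets were represented by 8 of 26 genes, all lower, with a median of -1.27. Beside 47 of the 353 lower genes of the table, 2 of the 8 had an authors' FDR under 0.05. These 2 were Psmb8, an immunoproteasome subunit, at -1.219 (FDR 0.0148), and Ciita, the activator of MHC class II genes, at -2.08 (FDR 0.00181), the latter named after its values were seen. Cxcl9, a chemokine that draws T cells, measured 5.62, 29.0, 23.7 and 5.55 FPKM with anti-PD-1 and 9.34, 0.340, 0.931 and 0.353 FPKM with F. nucleatum, a log2 difference of -3.55. Cxcl10, a chemokine for the same receptor, differed by -1.30. The difference was -1.23 for Cd274, the gene of PD-L1, which binds PD-1.

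Of a list of 23 other genes of cell-autonomous defence, 5 are in the table: Zbp1, Oas1a, Oas2, Oas3 and Oasl2. The rest of that list, with Casp4, Gsdmd and Atg5 among them, was not analysed here. All 5 genes were lower, and the median of their log2 differences was -1.48. Zbp1 and Oas3 have an authors' FDR under 0.05, beside 47 of the 353 lower genes of the table. Zbp1, a sensor of unusual nucleic acids, measured 1.83, 2.78, 2.66 and 2.28 FPKM against 1.39, 0.539, 0.593 and 0.892 FPKM, with no overlap between the groups. Tumor 36 was below every anti-PD-1 tumor for Zbp1, as for Gbp8 and unlike the other 5 members. The oligoadenylate synthetases, which activate an RNA-degrading enzyme on double-stranded RNA, differed by -1.70 (Oas2) and -1.09 (Oas1a), and the related Oasl2 by -1.39.

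**Figure D4:**
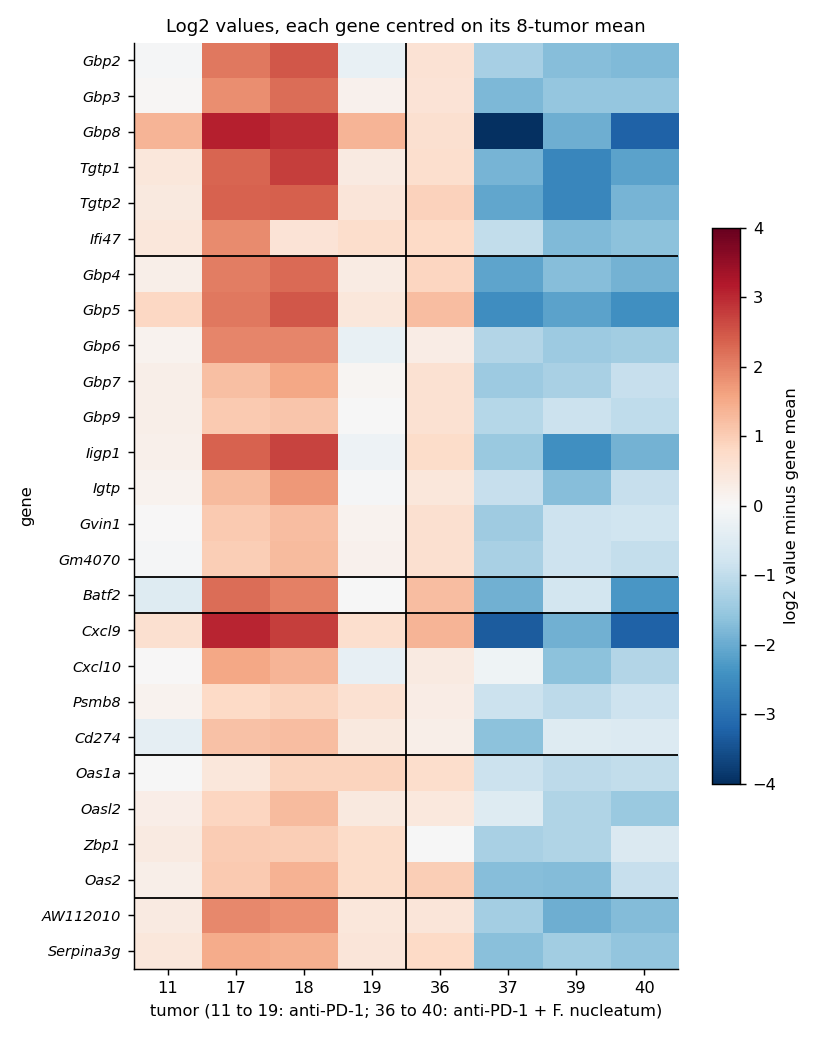
Log2 values of the members, the other GTPases in the table, pathway genes and the genes most alike in pattern, each centred on its mean over 8 tumors (red above, blue below), with lines between the groups of genes and between the treatments. Tumors 17 and 18 are highest for most genes, tumors 37, 39 and 40 are below the gene mean, and tumor 36 is above the gene mean for every GTPase shown.

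To compare patterns without the contrast that selected the table, log2 values were centred within each group and correlated with the mean of the members over the 8 tumors, among 198 other genes with a mean log2 value of at least 5. The most alike were Gbp4 (Pearson r = 0.994), Gbp9 (0.987), AW112010, a transcript named for an expressed sequence (0.984), Gbp5 (0.978) and Serpina3g, a serine protease inhibitor (0.976). The 9 other GTPases of the list had r from 0.927 to 0.994, beside a median of 0.595 over the 198 genes, of which 29 reached 0.9. Among the members, each against the mean of the other 5, r was 0.978 for Tgtp2, 0.972 for Gbp3, 0.969 for Tgtp1, 0.931 for Gbp2, 0.839 for Gbp8 and 0.788 for Ifi47. These values are descriptions over 8 tumors in 2 groups, and all genes compared come from the same libraries. Centring leaves 6 independent deviations. On ranks, Spearman's rho was lower, at 0.952 for Gbp4, 0.786 for Gbp9, 0.810 for AW112010, 0.714 for Gbp5 and 0.738 for Serpina3g.

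Some markers of the cells that make interferon-gamma are in the table, and that these differ between the groups was fixed by its selection. The listed markers outside the table are not in the sums. The 7 T cell markers in the table (of 11 on the list) summed to 2.99 to 8.26 FPKM with anti-PD-1 and 0.611 to 2.61 FPKM with F. nucleatum. The 4 NK cell markers (of 7) summed to 2.70 to 6.19 and 0.104 to 2.17 FPKM. Cd3d, Cd8b1 and Klrd1 were listed at 0 in tumor 40 and Eomes in tumor 37, and the markers in the table were above 0 otherwise. Itgax, the 1 dendritic cell marker of 6 in the table, was at 1.97, 3.87, 7.20 and 1.94 FPKM with anti-PD-1 and 2.10, 0.840, 1.215 and 1.34 FPKM with F. nucleatum. Macrophage, endothelial and fibroblast markers were not analysed here. Their part, and that of the T and NK cells, in the GTPase values was not tested, and in bulk tumor RNA fewer cells of a type and less RNA per cell cannot be told apart.

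The summed T cell and NK cell markers and the summed GTPases did not rank the tumors alike. In tumor 36 both marker sums, 2.61 and 2.17 FPKM, were below those of all 4 anti-PD-1 tumors, while its summed GTPase level of 37.8 FPKM was above tumors 11 and 19 (25.9 and 23.7 FPKM). Single markers varied. In log2 values tumor 36 lay above at least 1 anti-PD-1 tumor for 3 of the 7 T cell markers and 0 of the 4 NK cell markers. Itgax in FPKM was highest in tumors 18, 17, 36, 11 and 19, in that order, as was the GTPase sum. Tumor 18 had the lowest T cell and NK cell sums of its group, 2.99 and 2.70 FPKM, and the highest GTPase sum, 117.3 FPKM. Tumor 19 was close in both marker sums, at 3.24 and 2.79 FPKM. The order of these 2 tumors depends on the markers that weigh most in a sum. Cd8a, for example, was at 0.363 FPKM in tumor 18 and 0.194 FPKM in tumor 19, and Lck and Nkg7 were also higher in tumor 18. Tumor 11 had the second highest T cell sum, 6.25 FPKM, with a GTPase sum of 25.9 FPKM. With 4 tumors in a group no correlation was computed for these sums.

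**Figure D5:**
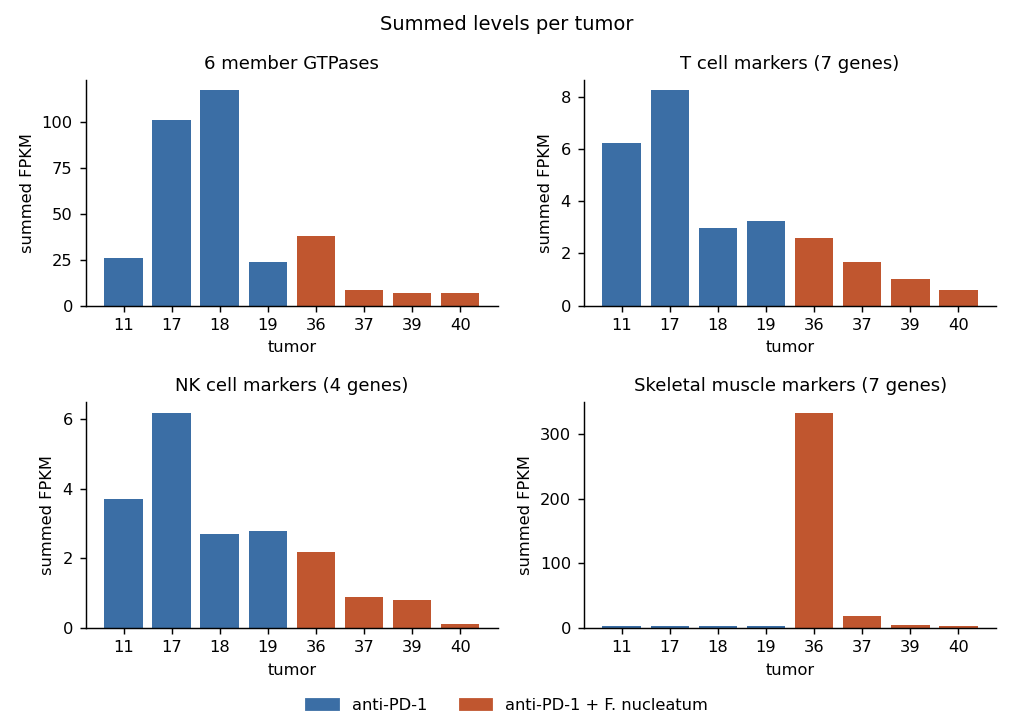
Summed FPKM per tumor of the 6 members, 7 T cell markers, 4 NK cell markers and 7 skeletal muscle markers, anti-PD-1 in blue and anti-PD-1 + F. nucleatum in orange. Tumors 17 and 18 lead the GTPase panel, tumor 36 lies above tumors 11 and 19 there but below them in both lymphocyte panels, and the muscle markers are at 333.7 FPKM in tumor 36.

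The terms shared in the deposited annotation include GTP binding and defense response, each listed for 5 of the 5 members with gene ontology terms. GTPase activity is listed for 4 of the 5 members with gene ontology terms, and Gbp3 has no such term in the table. Response to interferon-beta and response to interferon-gamma are each listed for 3 of the 5. The KEGG pathway of NOD-like receptor signaling, which covers inflammasome sensors, lists Gbp2 and Gbp3.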

How the data were processed

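The 6 members and all gene lists were chosen with earlier results of these data known. Per the labels' protocols, TRIzol was used for RNA and a strand-specific TruSeq kit for the libraries. STAR 2.5, DESeq 1.22.1, Cuffnorm, FastQC and the build mm10 appear in the submitters' processing notes without a stated role. The table the authors deposited gives log2 values, which on reversal were whole multiples of 1 read in 100% of values (tolerance 0.1 read), so reads and size factors were recovered but no library totals. The authors also deposited FPKM values and a p-value and FDR per gene, whose test the sources used here do not state. Log2 differences are understated for scarce genes because 1 is added.

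Groups followed the labels. The limma p-values set each difference against the spread between these tumors, which may not be separate animals. limma 3.58.1 in R 4.3.3 (eBayes with trend) was fitted to all 752 genes without a filter, after a check on simulated data. That check drew independent values, with each gene's spread capped at the median spread. It held no outlying tumor and no selection of genes, so it does not bear on those. "Fell" follows the authors' FDR. Positions came from GENCODE M21 (all 752 IDs matched) and promoters from RefSeq. Named genes were the members, the other listed GTPases, up to 4 genes per pathway list with the highest mean FPKM, and the 5 most alike in pattern. Alternatives were FPKM with a pseudocount of 1 or 0.1, filters at 1 and 5 FPKM, median centring, no trend, array weights, voom on recovered reads, stricter thresholds, adjustment over 29424 genes, Spearman's rho, and tumors left out. The remaining work was done in Python 3.11.15 (Biopython 1.88, matplotlib 3.10.9, pandas 2.3.3, scipy 1.17.1, numpy 2.4.6).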

Additional observations from a re-analysis of the deposited data

Results flagged for a closer look

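Within a group of 4 tumors, 1 value can lie far from the rest. The gap from the extreme tumor to its nearest neighbour, divided by the group's range, was set against Dixon's 95% critical value for 4 samples in 52 groups of 4 values over 26 genes, and 8 exceeded it. Chance flags about 1 in 20 independent groups, but these genes share their tumors and vary together, and some were named for their likeness to the members, so the 8 are not independent and are not set against that rate. All 8 were high values of tumor 36 among the F. nucleatum tumors. Gbp3 was the member among them, with a log2 value of 9.69 in tumor 36, next to 7.60 in the nearest tumor. The other GTPases were Gbp4 at 9.19, Gbp5 at 9.14, Gbp6 at 8.23 and Gbp9 at 9.43. The remaining 3 were Psmb8 at 10.01, Oas1a at 9.23 and Serpina3g at 8.72. Skeletal muscle markers were also highest in that tumor, at a summed 333.7 FPKM, and their part in these values was not tested.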

How the results depend on the processing

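The median difference of the members stayed negative under every setting that gave one, from -1.54 with log2(FPKM + 1) to -3.22 without tumors 36 and 37. No member reversed in the 113 values computed over the alternatives. Some of these alternatives repeat the main difference and can change the p-value or the call only. They are the filters on log2 values, no trend, the wider adjustment and the stricter threshold. The table was also selected on this contrast, so the 113 values are not a test of the direction. The number of members called by limma was 0 as reported and also 0 with FPKM values, a filter at 1 FPKM (which drops Gbp8), no trend, voom, adjustment over 29424 genes and a threshold of 0.01. It was 1 with a filter at 5 FPKM, where Gbp2 was the member tested and 17 of 35 genes were called (10 lower, 7 higher), 6 with tumors centred to the same median, 6 with array weights, 4 without tumors 36 and 37, and 0 to 5 with 1 tumor left out, reaching 5 without tumor 36. Over the table, limma called 125 genes after centring (118 lower, 7 higher), 238 with array weights (152 lower, 86 higher), 140 without tumor 36 (127 lower, 13 higher) and 126 without tumors 36 and 37. Centring shifted all differences by -0.61 and array weights moved the median of all genes from 1.18 to 0.08, so calls under both include a change of scale or weight. Leaving out another tumor brought some limma intervals of the difference across 0. Without tumor 37 this held for Gbp2 (-4.49 to 0.42), Gbp3 (-3.91 to 0.07) and Ifi47 (-3.55 to 0.03). It also held without tumor 17 for Gbp2 (-3.76 to 0.22) and Ifi47 (-2.95 to 0.04), and without tumor 18 or 40 for Gbp2. The intervals of Gbp8, Tgtp1 and Tgtp2 stayed below 0 whichever tumor was left out. For Gbp8 the difference was -0.48 on log2(FPKM + 1), a scale that flattens values near 0. In the authors' deposited table the count of members went from 1 to 0 at an FDR under 0.01. Of the 5 genes most alike in pattern, 1 remained with Spearman's rho and 2 to 5 with 1 tumor left out; the cause was not tested. Filters at 1 and 5 FPKM gave no median over 6 members. No paired analysis was possible because the tumor numbers are names that the groups do not share. Depth limits Gbp8, at 0 to 36 reads in the F. nucleatum tumors.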
